A study of Mus musculus with 95 samples.

Results

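Among the 15 non-dependent mice of the series, the bulk-tissue (input) library fell into 2 separate ranges of Timmdc1: 8 libraries were high and 7 were low. The groups were defined by the measured value itself, with high meaning at least 30 CPM (the Timmdc1 count divided by the total count of the library and multiplied by 1000000) and low meaning under 30, so they are not groups of the study's design. The whole series holds 95 libraries of 49 mice, 49 of input and 46 of IP. Every mouse carried the Aldh1l1-EGFP/Rpl10a transgene of the JD130Htz line on a mixed B6;FVB background, in which Aldh1l1 sequences drive a fluorescently tagged ribosomal protein in astrocytes; the tag was used to purify the astrocyte ribosomes of a nucleus accumbens punch (IP), and the input was kept from the same punch before purification. Non-dependent mice were the 2BC controls, which drank ethanol by choice; dependent mice had CIE-2BC, in which rounds of chronic intermittent ethanol exposure were added; and naive mice had no ethanol. The labels give no ages. Of the 15 mice, 8 were female and 7 male, and 13 also had an IP library: 7 of the high group and 6 of the low group.

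Timmdc1 encodes a protein of the inner mitochondrial membrane that helps to assemble complex I, the first enzyme of the respiratory chain, and that resembles subunits of the mitochondrial import translocases. Complex I is built from subunits encoded in the nucleus and in mitochondrial DNA, and assembly factors such as Timmdc1, Ecsit, Acad9 and Tmem126b hold its intermediates together without remaining in the finished enzyme. Neurons and astrocytes both depend on complex I for respiration. In the GRCm38 annotation the gene (ENSMUSG00000002846) lies on the minus strand of chromosome 16, from 38498347 to 38522663.

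Library totals ranged from 12803108 to 27146790 counts over the series. In the non-dependent inputs they were 12816752 to 19928907 in the high group and 13560123 to 20608170 in the low group, and mitochondrially encoded transcripts took 7.41% to 17.7% and 8.21% to 13.4% of the counts, so both measures overlapped. Astrocyte markers summed to 3359 to 4266 CPM in the high inputs and 3171 to 4121 CPM in the low inputs, against 24276 to 30643 CPM and 24167 to 27318 CPM in the IP libraries of the same groups. All 12 of these markers were detected in input. No 2 libraries were identical. The labels do not say how the batches, named by a letter, differ.

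The high inputs held 86.2 CPM of Timmdc1 in mouse I01, 91.2 in I03, 95.02 in I08, 121 in K15, 145 in I10, 146 in K12, 149 in K16 and 192 in J04. The low inputs held 8.11 CPM in I14, 8.27 in I06, 8.76 in I04, 9.66 in I16, 11.1 in I12, 11.4 in J03 and 12.83 in J11. The members nearest to the threshold were therefore J11 below it and I01 above it, and no library lay between 12.83 and 86.2 CPM. The group means were 128 ± 36.6 CPM (SD, n = 8) and 10.01 ± 1.79 CPM (SD, n = 7). In counts, the high libraries held 1717 to 2501 and the low libraries 151 to 203. The fitted log2 fold change, with sex and batch as terms, was 3.70 ± 0.16 (SE); since this value chose the groups it is a description. Within the high group the CPM ran largely in reverse to the totals. The lowest values were those of I01, I03 and I08, with totals of 19920865, 19928907 and 19890921 counts. The highest was that of J04, with the smallest total of the group, 12816752. The Timmdc1 counts also differed, with 1717 in I01, 1817 in I03 and 1890 in I08 against 1943 in I10 and 2459 in J04. The part of the totals in this spread was not tested.

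Both sexes occurred in both groups, and both groups occurred in 2 of 3 batches. Batch I held 4 high and 5 low inputs, batch J held 1 and 2, and batch K held 3 high and none low, so in batch K the group and the batch cannot be told apart. With batch as a term, the fitted differences between the groups therefore rest on batches I and J. In IP, batch I held 3 high and 4 low libraries and batch J 1 and 2. The ranges and group means printed for high libraries include batch K. Within batch I the high inputs ran from 86.2 to 145 CPM and the low inputs from 8.11 to 11.1 CPM. Within batch J the 1 high input had 192 CPM against 11.4 and 12.83 CPM. The high group comprised 5 females and 3 males and the low group 3 females and 4 males.

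Timmdc1 did not keep its level between the libraries of a mouse, so the label "non-dependent mice split by Timmdc1" describes input libraries and not mice. The IP libraries of the high group held 7.41 CPM in I01, 7.89 in I08, 7.97 in K15, 9.39 in K12, 10.9 in K16, 33.9 in I03 and 139 in J04. Those of the low group held 6.50 CPM in I06, 6.52 in I12, 7.28 in J03, 7.97 in I04, 8.09 in I16 and 123 in J11. At least 30 CPM was thus reached in the IP of 2 of 7 high mice and 1 of 6 low mice, and the groups overlapped over nearly their whole range. In 5 of the 7 high mice the IP was under 30 CPM, although the input taken from the same punch was not. Mouse J11 had the reverse, 12.83 CPM in input and 123 CPM in IP.

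**Figure D1:**
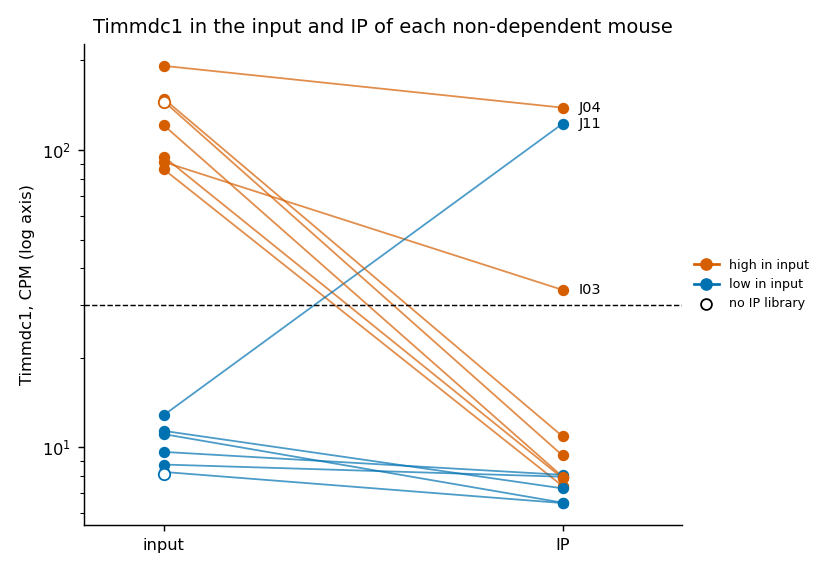
Timmdc1 in CPM (log axis) in the input and the IP of each non-dependent mouse, with a line joining both libraries of a mouse, orange for high and blue for low in input, open circles for the 2 mice without an IP library and a dashed line at 30 CPM. The inputs leave a gap from 12.83 to 86.2 CPM, while only I03, J04 and J11 exceed 30 CPM in IP.

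The IP comparison tests a measure that did not choose the groups. The log2 fold change of Timmdc1 in IP, high minus low, was 1.20 ± 0.61 and did not pass the test (SE, edgeR quasi-likelihood test, unadjusted p = 0.073, adjusted p = 0.992), with mean levels of 30.9 ± 48.5 CPM (SD, n = 7) and 26.5 ± 47.1 CPM (SD, n = 6). On log2 CPM without terms for sex and batch, the difference in means was 0.41 and the exact two-sided permutation p over the 13 libraries was 0.551. The fitted difference was 0.22 ± 0.68 without mouse I03 and 1.87 ± 0.56 without J11 (SE), so it depends on single mice. Neither passed the edgeR test adjusted over all genes (adjusted p at least 0.999 in both). Within batch I alone the difference was 0.72 ± 0.43 (SE, edgeR adjusted p = 0.830). In one fit over both fractions with the mouse as a block, the IP difference minus the input difference of Timmdc1 was -2.36 ± 0.51 (SE, edgeR). Since the input level that formed the groups enters this contrast, the choice of groups favours a negative sign without fixing it, and the value is a description. The same fit called none of 21513 genes, 0%, and nothing is read from that count.

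The same 2 ranges were present in the libraries of the other treatments. Among dependent mice, the input of 1 of 18 reached 30 CPM: L25, with 77.1 CPM. Among naive mice 6 of 16 did: 77.5 CPM in L31, 79.3 in L32, 93.1 in L28, 106 in L33, 127 in J08 and 207 in J01. The IP libraries of all 7 mice were low, between 7.40 and 14.5 CPM. Conversely, 7 of 26 dependent and naive mice with a low input had a high IP. These were I15 (34.9 CPM), I05 (44.1) and K21 (54.7) among the dependent mice and K20 (53.6), L27 (80.3), J07 (92.0) and J02 (109) among the naive mice. Over all 49 inputs no value lay between 14.9 and 77.1 CPM, with 34 libraries below and 15 above. In IP the low range reached 14.5 CPM in 36 libraries and the high range began at 33.9 CPM in 10.

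Counted over the 46 mice with both libraries, 2 were high in both, 12 in input only, 8 in IP only and 24 in neither, so the libraries differed in 20 mice. Of the 14 mice with a high input and of the 32 with a low one, 2 and 8 had a high IP. High inputs occurred in batches I, J, K and L (4 of 16, 3 of 11, 3 of 9 and 5 of 11), and high IPs in the same 4 batches (3 of 14, 4 of 11, 2 of 9 and 1 of 10). Batches C and G hold 1 mouse each, and neither was high. The share of high inputs was 8 of 15 in non-dependent, 6 of 16 in naive and 1 of 18 in dependent mice, while the share of high IPs was 3 of 13, 4 of 15 and 3 of 18; these shares are given without a test.

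**Figure D2:**
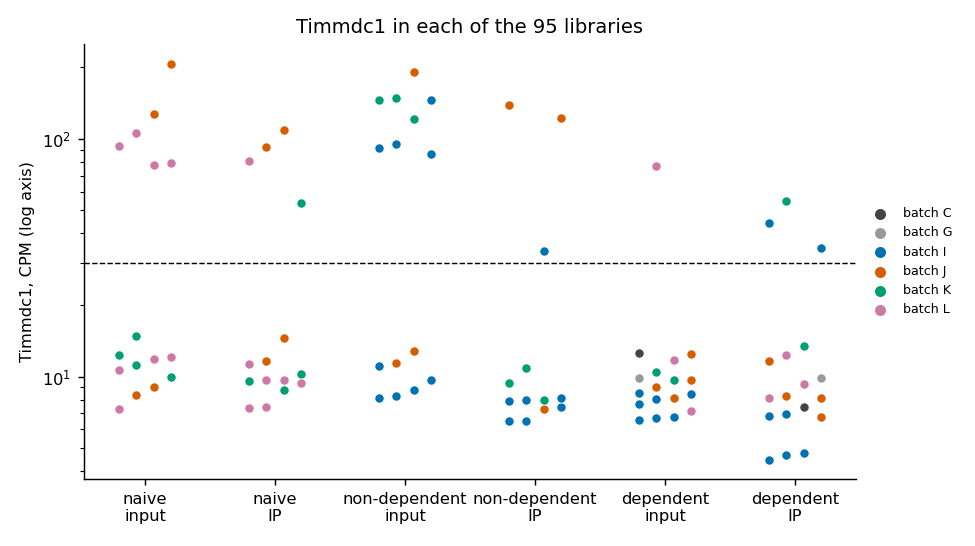
Timmdc1 in CPM (log axis) in each of the 95 libraries, by treatment and fraction, with a point per library coloured by batch and a dashed line at 30 CPM. Every treatment has libraries above the line in both fractions, among them 8 of 15 non-dependent inputs and 1 of 18 dependent inputs, and no library lies between 14.9 and 33.9 CPM.

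Where the split of the other mice was tested in their IP libraries, the log2 fold change of Timmdc1 itself was -1.52 ± 0.73 (SE, edgeR, unadjusted p = 0.0487, adjusted p = 1). The fitted value had the other sign than in non-dependent mice; neither was called, and the difference between both effects was not tested. Of 23924 genes tested there, edgeR called none, 0%, with 1045 at an unadjusted p under 0.05, while DESeq2 called 207, 0.865%, of which 9 had a mean of at least 1 CPM.

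Genome-wide, Timmdc1 stood alone among the genes called between high and low inputs. Of 20378 genes tested in input, the 1 gene called at an adjusted p at or under 0.05 (0.00491%) was Timmdc1, which the rule had selected. By the plainer criterion that all high libraries lie on one side of all low ones, 4 of 15747 genes with a mean of at least 1 CPM qualified (0.0254%). They were Timmdc1, which the cut itself separates, and 3 genes that were lower in the high group. The IP libraries gave 7 of 15116 genes by that criterion (0.0463%), 2 of them higher. Whether these numbers exceed what chance gives was not tested, and nothing is read from them.

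The 3 genes besides Timmdc1 had small differences, and none was called (edgeR adjusted p = 0.988 for each). Fgd6 ranged from 3.59 to 5.28 CPM in the high inputs (median 4.74) and from 5.48 to 7.67 CPM in the low inputs (median 6.78). Its fitted log2 fold change was -0.54 ± 0.19 (SE). Zfp236, a zinc-finger gene, ranged from 18.4 to 30.6 CPM against 31.6 to 35.5 CPM, and Ttc34 from 5.72 to 9.35 CPM against 9.50 to 11.9 CPM. In IP all 3 overlapped: Fgd6 ranged from 25.4 to 42.8 CPM in high mice and from 37.1 to 41.8 CPM in low mice, and its log2 fold change was -0.16 ± 0.13 (SE, edgeR adjusted p = 0.999).

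**Figure D3:**
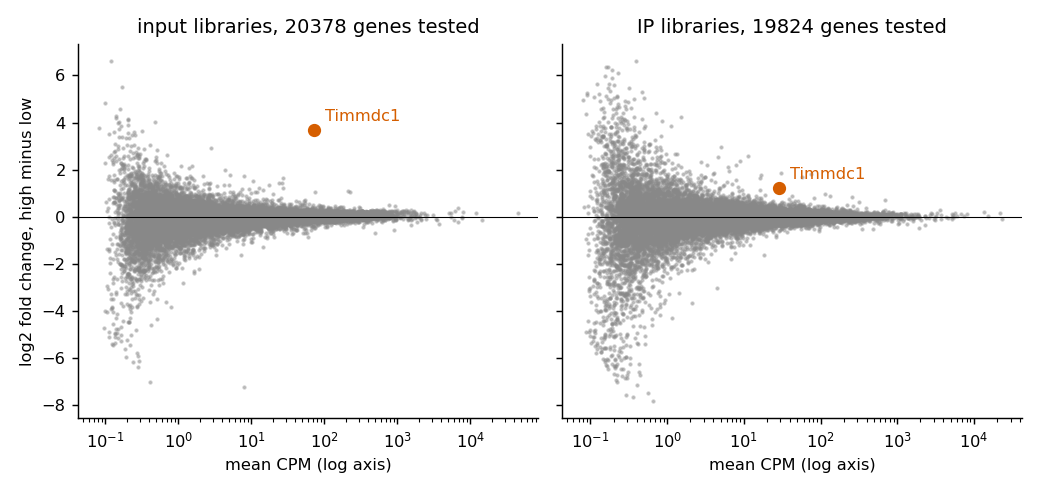
Fitted log2 fold change of high minus low against mean CPM (log axis) for every gene tested in the input (20378 genes) and IP (19824 genes) libraries of non-dependent mice, a point per gene with Timmdc1 in orange. Timmdc1 stands at 3.70 in input, away from genes of similar level, and at 1.20 in IP.

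In the IP libraries, edgeR called none of 19824 genes, 0%, and 969 had an unadjusted p under 0.05 (4.89% of those tested); DESeq2 on the same model called 32, 0.161%, of which 13 had a mean of at least 1 CPM. The 6 genes with the smallest p were Lsp1, Nxph3, Tmem215, Thbs4, Trim30a and Pigl. Each had an adjusted p of 0.927 by edgeR, and each passed by DESeq2, with adjusted p between 0.000761 and 0.0381. Whether they differ thus depends on the tool.

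Thbs4, a secreted thrombospondin of the extracellular matrix, ranged from 9.92 to 35.5 CPM in the IP of high mice (median 21.97) and from 3.30 to 29.4 CPM in that of low mice (median 7.74), a log2 fold change of 1.78 ± 0.38 (SE). Of the low libraries 2, from J03 (29.4 CPM) and I12 (10.6 CPM), lay inside the range of the high ones. Nxph3, a secreted partner of neurexins, had 1.80 to 13.6 CPM against 0.513 to 5.86 CPM, a log2 fold change of 2.56 ± 0.52 (SE), and J03 was again the highest low library. Lsp1, an actin-binding protein of leukocytes, had 4.07 to 11.4 CPM against 1.79 to 6.60 CPM. Pigl, an enzyme of the glycolipid anchor pathway, had 1.33 to 7.30 CPM against 0.821 to 2.62 CPM. Tmem215 was at 0 CPM in 5 of 7 high libraries and between 0.354 and 1.92 CPM in the low ones, so its fold depends on the prior count. Trim30a, an interferon-inducible gene with close paralogs whose reads may be shared with it, had 46.0 to 551 CPM against 41.2 to 121 CPM, and the highest value came from J04. In the IP of the other mice, split in the same way, the log2 fold changes of these 6 genes lay between -0.49 and 0.30 and the smallest unadjusted p by edgeR was 0.371.

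When the 3 IP libraries that were themselves high (I03, J04 and J11) were left out, an alternative chosen after the data were seen, edgeR called 2 genes, both higher in the high group. Batch J then held low J03 alone and batch K high mice alone, so with batch as a term this contrast rested on I01 and I08 against the 4 low mice of batch I, and the fit to batch I alone, which adds I03, is largely the same comparison. Hopx, a homeodomain-only protein present in astrocytes, had a log2 fold change of 1.48 ± 0.13 (SE, edgeR adjusted p = 0.000586) there and 1.40 ± 0.10 (SE, edgeR adjusted p = 0.00166) in batch I alone. With all 13 libraries it was 0.84 ± 0.42 (SE, edgeR adjusted p = 0.992), with 130 to 479 CPM in high and 137 to 468 CPM in low mice. Hs3st3a1, a heparan sulfate sulfotransferase, had a log2 fold change of 3.14 ± 0.40 (SE, edgeR adjusted p = 0.0260) without those libraries and 2.20 ± 0.59 (SE, edgeR adjusted p = 0.927) with all of them. In the other mice Hopx was at -0.13 and Hs3st3a1 at -0.27, with adjusted p = 1 by edgeR for both.

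The genes whose input level was most like that of Timmdc1 over the 15 non-dependent libraries were found by the Pearson correlation of log2 CPM less the batch mean, which is a description of libraries that share the split. The 5 most positive were Zfp787 (0.86), Tspan18 (0.86), Spata24 (0.84), Mroh5 (0.83) and Serf1 (0.81). The 5 most negative were Gpr17 (-0.92), a receptor of maturing oligodendrocyte precursors, Sncaip (-0.84), the synuclein-binding synphilin, Ric8b (-0.83), a chaperone of G protein subunits, Fgd6 (-0.83) and Mgea5 (-0.83), which removes O-linked N-acetylglucosamine from proteins. Gpr17 ranged from 5.23 to 8.58 CPM in high and from 7.52 to 13.3 CPM in low inputs. The gene with the correlation furthest from 0 thus overlapped between the groups in CPM, while Fgd6 did not. None lies on chromosome 16. In the 34 inputs of the other mice the same correlations were -0.33 to 0.09 for the positive set and -0.24 to 0.34 for the negative set. In the 13 non-dependent IPs they were -0.15 to 0.39 and -0.43 to 0.25.

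No gene near Timmdc1 was called in either fraction. Over all genes tested, Timmdc1 alone was called in input (1 of 20378, 0.00491%) and none of 19824 in IP, 0%. The absence of calls is therefore not particular to its neighbours. Of 23 genes tested in input with a start within 1 Mb of the Timmdc1 start, none was called; their median log2 fold change was 0.10 and their range -1.01 to 0.83, against a median of -0.00 over all other genes tested. In IP the 22 such genes had a median of -0.02 and none was called. Poglut1, the next tested gene on one side and an enzyme that glucosylates Notch, ranged from 20.4 to 47.3 CPM in high and from 24.2 to 40.9 CPM in low inputs, with a log2 fold change of -0.00 ± 0.13 (SE). Cd80, a costimulatory ligand on the other side, was at most 2.71 CPM in any non-dependent input. Tmem39a had 2.18 to 7.79 CPM against 2.92 to 8.73 CPM, and Adprh, which removes ADP-ribose from arginine, 44.7 to 118 CPM against 58.0 to 123 CPM.

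Of the neighbours, 2 encode mitochondrial proteins of the respiratory chain, and both overlapped between the groups. Cox17, the copper chaperone of cytochrome oxidase, ranged from 8.43 to 26.7 CPM in high and 9.36 to 18.5 CPM in low inputs (log2 fold change 0.14 ± 0.17, SE), and Ndufb4, a complex I subunit, from 359 to 1001 CPM and 378 to 712 CPM (log2 fold change 0.23 ± 0.16, SE). The neighbour with the smallest p in IP was Pla1a, a phospholipase, at 0 to 0.860 CPM in high and 0.0417 to 1.297 CPM in low mice. Its log2 fold change in IP was -3.94 ± 1.39 (SE, edgeR unadjusted p = 0.0116, adjusted p = 0.992). In input it was -1.01 ± 0.42 (SE, edgeR unadjusted p = 0.0261, adjusted p = 0.988). Fstl1, the other neighbour with an unadjusted p under 0.05 in input, had a log2 fold change of 0.36 ± 0.15 there (SE, edgeR adjusted p = 0.988). Its groups overlapped, with 15.2 to 36.1 CPM in high and 17.9 to 28.8 CPM in low inputs. Within 5 Mb, 66 genes in input had a median log2 fold change of 0.01 and 71 in IP a median of 0.01; within 10 Mb, 154 and 160 genes had medians of 0.02 and -0.02; and over the rest of chromosome 16, 452 and 430 genes had medians of -0.03 and -0.01. None of these was called in either fraction. Within 1 Mb, 2 of 23 genes in input (8.70%) and 1 of 22 in IP (4.55%) had an unadjusted p under 0.05 by edgeR. Within 5 Mb 3 of 66 (4.55%) and 8 of 71 (11.3%) did. Within 10 Mb these numbers were 4 of 154 (2.60%) and 11 of 160 (6.9%). Over all genes tested but Timmdc1 the shares were 3.64% and 4.89%. Whether the windows depart from those shares was not tested.

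**Figure D4:**
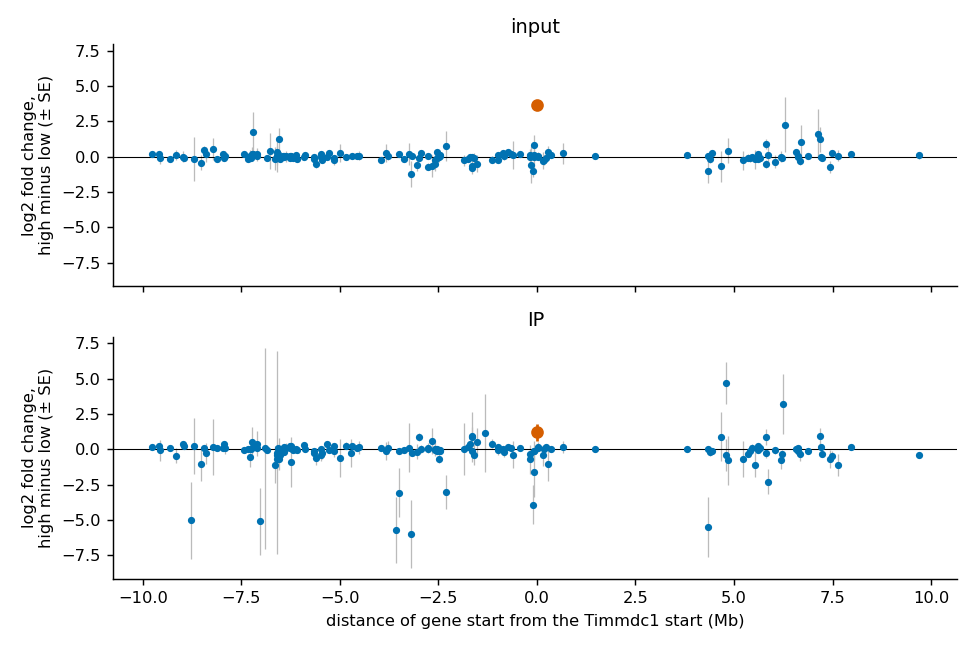
Log2 fold change of high minus low with its SE for the genes tested within 10 Mb of the Timmdc1 start, in input (top) and IP (bottom), against the distance of their start in Mb. Timmdc1 (orange) stands at 3.70 in input, and the other genes within 1 Mb lie between -1.01 and 0.83.

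None of the other assembly factors of complex I was called in input or IP. Over all genes, none of 19824 was called in IP (0%), and the 1 called of 20378 in input (0.00491%) was Timmdc1. Of 17 tested besides it, 7 were higher and 10 lower in the high inputs, between -0.17 and 0.22 on the log2 scale with a median of -0.06; in IP 6 were higher, between -0.28 and 0.34 with a median of -0.03, and none was called or had an unadjusted p under 0.05. Foxred1, a flavoprotein needed for complex I assembly, ranged from 17.7 to 43.9 CPM in the IP of high and from 11.6 to 39.3 CPM in that of low mice, a log2 fold change of 0.34 ± 0.20 (SE, edgeR adjusted p = 0.992). Ndufaf7, a methyltransferase that acts on a complex I subunit, had 25.4 to 74.7 CPM against 35.0 to 78.2 CPM (log2 fold change -0.20 ± 0.12, SE). Ndufaf2, which acts late in assembly, had 38.6 to 105 CPM against 50.9 to 101 CPM. Their 17 levels summed to 892 to 1045 CPM in the high inputs and 925 to 988 CPM in the low inputs.

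**Figure D5:**
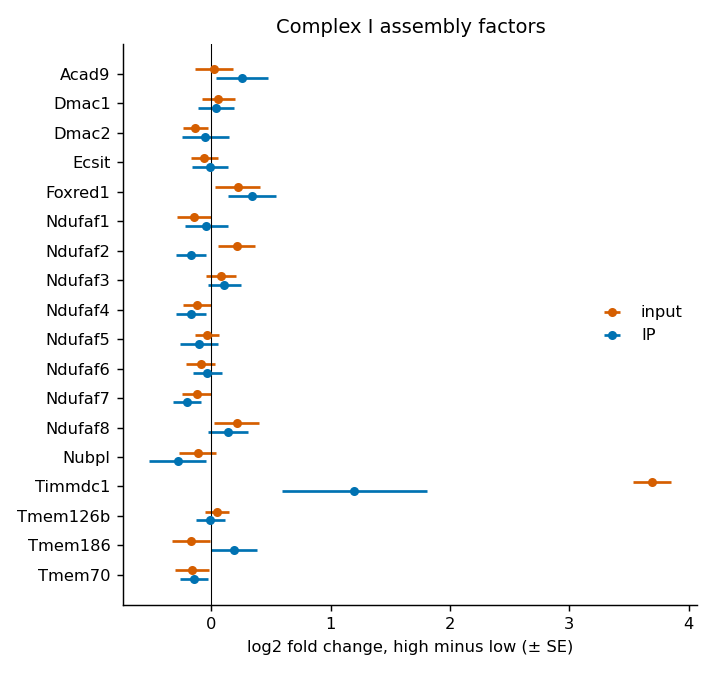
Log2 fold change of high minus low with its SE for Timmdc1 and the 17 other complex I assembly factors tested, in input (orange) and IP (blue) libraries of non-dependent mice. Timmdc1 stands at 3.70 and 1.20, and the others lie between -0.28 and 0.34.

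The subunits of complex I and the import machinery were measured in the same fits, and none of their members was called in either fraction. Nor was any gene tested but Timmdc1, with 1 of 20378 called in input (0.00491%) and 0 of 19824 in IP (0%). Of 36 nuclear subunits, 33 were higher in the high inputs (median 0.19 on the log2 scale) and 19 in IP (median 0.01). Of all genes tested but Timmdc1, 10030 of 20377 were higher in input and 9672 of 19823 in IP. The subunit levels summed to 10609 to 25050 CPM in the high inputs and 11316 to 18841 CPM in the low inputs. In IP, Ndufa9 was at -0.20 ± 0.14 and Ndufs1, the largest subunit of the electron input module, at 0.14 ± 0.10 (log2 fold change, SE). The 7 subunits encoded in mitochondrial DNA had a median of 0.05 in input and -0.22 in IP, where mt-Nd4 had 345 to 972 CPM in high and 318 to 805 CPM in low mice. The 20 genes of mitochondrial protein import had medians of -0.01 and -0.05, and Timm9, a carrier of the intermembrane space, was at -0.23 ± 0.11 in IP (log2 fold change, SE, edgeR adjusted p = 0.992). Of genes that respond to mitochondrial stress, 15 were tested in input and 14 in IP, with medians of 0.06 and 0.05. Ddit3, a stress-induced transcription factor, was at -0.17 ± 0.16 and Atf5, which takes part in the mitochondrial unfolded protein response, at 0.34 ± 0.19 in IP (log2 fold change, SE). Over all genes tested the medians were -0.00 and -0.01.

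Among the lists of other functions and cell types, the immediate early genes, which neuronal activity induces, stood lowest. None of the 8 was called in either fraction. Over all genes tested, 1 of 20378 was called in input (Timmdc1, 0.00491%) and 0 of 19824 in IP (0%). The median log2 fold change of the 8 was -0.76 in input, where 0 of 8 were higher, and -0.58 in IP, where 1 of 8 was higher. In the IP of the other mice it was -0.05. Fos had 2.64 to 18.3 CPM in the IP of high and 7.90 to 22.1 CPM in that of low mice, a log2 fold change of -1.20 ± 0.32 (SE, edgeR adjusted p = 0.927; DESeq2 adjusted p = 0.0486). Egr2 had 0.0440 to 3.77 CPM against 1.36 to 6.66 CPM (log2 fold change -1.57 ± 0.71, SE, edgeR adjusted p = 0.992). The groups overlapped for both.

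No member of a cell type list was called in either fraction, where 1 of all 20378 genes was called in input (Timmdc1, 0.00491%) and 0 of 19824 in IP (0%). The 12 astrocyte markers had medians of 0.08 in input and 0.07 in IP on the log2 scale, with 9 of 12 higher in IP and a range of -0.11 (Gjb6, a connexin) to 0.71 (Gfap, the astrocyte intermediate filament). Gfap, which had the smallest p among them in IP, was at 235 to 1463 CPM in high and 228 to 809 CPM in low mice, with a log2 fold change of 0.71 ± 0.19 (SE, edgeR adjusted p = 0.927). Neuron markers had medians of 0.15 in input and 0.27 in IP on the log2 scale, with 7 of 8 higher in each fraction. In each fraction 2 of the 8 had an unadjusted p under 0.05 by edgeR. Their levels summed to 1320 to 2118 CPM in the IP of high and 1333 to 1761 CPM in that of low mice. The 10 markers of medium spiny neurons, the main neurons of the accumbens, had medians of -0.17 in input, where 1 of 10 was higher, and -0.02 in IP, where 3 of 10 were. Endothelial markers had medians of -0.28 and -0.26, with 1 of 6 higher in input and 2 of 6 in IP. Of the 6, Ly6c1, a surface protein of brain endothelium, was at -0.49 ± 0.14 in IP (log2 fold change, SE, edgeR adjusted p = 0.927) and Cdh5, the endothelial cadherin, at 0.49 ± 0.44 (log2 fold change, SE, edgeR adjusted p = 0.999). Pecam1 was at -0.63 ± 0.22 in input and -0.97 ± 0.50 in IP, and Tek at 0.06 ± 0.29 and -0.66 ± 0.46 (log2 fold change, SE). In bulk tissue, fewer cells of a type and less RNA per cell cannot be told apart. Microglia markers summed to 456 to 614 CPM in the high and 485 to 578 CPM in the low inputs, and red blood cell genes to 304 to 895 CPM and 360 to 626 CPM. The part of these cell types in the results on Fos, Gfap and the 6 genes with the smallest p was not tested.

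The annotation bears on how Timmdc1 counts can be read. The main transcript has 1573 bases in 7 exons. A stretch from base 1087 to base 1298, past the end of the coding sequence at base 987, aligned over at least 100 bases with transcripts of 1693 other genes, at up to 97.4% identity. No other part did in this search, which used the default mode of blastn and annotated transcripts only. Copies outside the annotation were not searched, and diverged ones may have been missed. Of these genes, 1320 were tested in input, with a median log2 fold change of -0.03. None was called, as was true of every gene tested in input but Timmdc1 (1 of 20378 called, 0.00491%). The deposited counts give 1 value per gene, so which exons or bases carried the counts of the high libraries was not analysed here.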

How the data were processed

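The authors deposited whole-number gene counts for 95 libraries, unnormalized, indexed by Ensembl ID. Per the submitters' processing notes they used FastQC 0.11.9, Trimmomatic 0.39 and STAR 2.7.10b with GRCm38. How reads were assigned to genes, and whether strand was used, is not given in the sources used here. IDs were matched to GENCODE mouse release M21 (55230 of 55471 matched). Groups were compared by the quasi-likelihood test of edgeR 4.0.16 in R 4.3.3 (TMM, filterByExpr with a minimum count of 10, robust), with sex and batch as terms, and p-values were adjusted by Benjamini-Hochberg over all genes tested and called at or under 0.05. DESeq2 1.42.0 was an alternative. The code was tested on simulated data. The members and lists were chosen with earlier results of these data known. Timmdc1 levels are counts over library totals; log2 CPM uses a pseudocount of 0.5. Both libraries of a mouse come from 1 punch, and deviations from batch means correlated within all 13 mice (median 0.40, lowest 0.13, 9575 genes), so the mouse was a block where fractions were compared. Named genes are Timmdc1, its tested neighbours within 1 Mb, inputs that do not overlap, the 6 smallest p in IP, up to 4 members of a described list and the 5 most alike each way. Of 192 list genes in 17 lists, 191 matched. Transcripts were aligned with blastn 2.17.0. Nothing in the labels says that mice of a batch were handled independently, so p-values measure the spread between these libraries.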

Additional observations from a re-analysis of the deposited data

Results flagged for a closer look

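In 40 groups of library values examined (10 named genes, each in the input and IP of the high and low groups), 6 held a library far from the others of its group, where about 1 in 20 is flagged by chance. For Timmdc1 these were the IP of J04, at 139 CPM with the next high mouse at 33.9 CPM, and the IP of J11, at 123 CPM with the next low mouse at 8.09 CPM. In the IP of low mouse J03, Nxph3 was at 5.86 CPM with the next at 1.84 CPM, and Thbs4 at 29.4 CPM with the next at 10.6 CPM. Tmem215 was at 0.959 CPM in the IP of high mouse K15 with the next at 0.401 CPM. Trim30a was at 551 CPM in the IP of high mouse J04 with the next at 114 CPM.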

How the results depend on the processing

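Signs and sides printed for values that were not called are descriptions, and no direction is concluded from them. In input, Timmdc1 stayed called under every alternative, with log2 fold changes from 3.49 to 3.79 when each mouse was left out. This value formed the groups, so the call was fixed in advance and is no support. Cuts at 20 CPM, 40 CPM and the largest gap gave the same groups. The number of genes called was 1 with DESeq2, upper quartile scaling, no batch term, no sex term and batch I alone. It ran from 1 to 2 when each mouse was left out (2 without I08, the second gene being Gm10558). Without a filter on low counts it was 85 of 34287 tested, and 76 of the 85 had a mean of at least 1 CPM. In IP, the number called was 32 with DESeq2, 93 without the filter, 1 in batch I alone, 2 without the 3 high IP libraries and 0 otherwise. It ran from 0 to 0 when each mouse was left out. Of the 93, out of 31105 tested, 74 had a mean of at least 1 CPM, so most were not genes of low counts. The log2 fold change of Timmdc1 in IP ran from 0.22 to 1.87 when each mouse was left out, and without the filter it was 1.20 and called. In the comparison of fractions, leaving out each mouse gave 0 to 1 genes called and values of Timmdc1 from -2.85 to -1.89, and the fit without the replicate block gave 0 genes and -2.29. In the other mice, DESeq2 called 207 genes. The fit without the filter called 27, of which 20 had a mean of at least 1 CPM, with Timmdc1 at -1.52 and called. Naive mice alone gave 0. The cause of these differences was not tested. Dependent mice alone were not run, as 1 of them had a high input. Of 3467 other values of 76 named genes, 3446 kept their side of the threshold and 21, in 11 genes, were newly called, all with DESeq2 or without the filter. Batch K holds high inputs alone, so with batch as a term it adds no contrast between the groups. The IP test thus rests on 3 high and 4 low libraries of batch I and 1 high and 2 low of batch J. Leaving out K12, K15 or K16 gave Timmdc1 log2 fold changes in IP of 1.20, 1.21 and 1.20. The 6 low IP libraries limit that test too.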

Other observations

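Timmdc1 was not the only gene with separate ranges of input level. Over the 49 inputs, 15731 genes had a mean of at least 1 CPM, and 22 of them had a gap of at least 1.3 on the log2 scale with 3 or more libraries on each side, a criterion chosen after the data were seen. Of the 22, 4 are Y-linked genes, high in the 23 inputs of male mice. In 7 of the 22, under 1 in 4 of the IP libraries of the high mice lay above the middle of the gap on the log2 scale: Timmdc1, Pax8, AC137605.3, Esyt1, Hoxc9, Slc22a15 and Vdac3-ps1. Of these 7, only Timmdc1, Hoxc9 and Vdac3-ps1 were high in any non-dependent input, in 8, 5 and 3 of them. Esyt1, a protein that tethers the endoplasmic reticulum to the plasma membrane, was at 44.3 to 109 CPM in 4 inputs and at most 6.06 CPM in the others, and the IP libraries of those 4 mice held 1.48 to 3.68 CPM, while 2 other IP libraries reached up to 211 CPM. Slc22a15, a membrane transporter, was at 36.3 to 209 CPM in 4 inputs and at 3.72 to 7.09 CPM in the IP of those mice. AC137605.3 was at 18.1 to 128 CPM in 5 inputs and at most 0.585 CPM in any IP. By contrast, Hba-a2, an alpha globin gene, was high in the inputs of 14 mice and above the middle of that gap in the IP of all 14. Cd74 and Tap1, genes of antigen presentation, were high in 3 inputs and in the IP of all 3 mice. The high inputs of Hba-a2, Cd74 and Tap1 included no non-dependent mouse.

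Slc17a7 and Neurod6, genes of cortical excitatory neurons looked at after their values were seen, varied widely within both groups. Slc17a7 ranged from 54.4 to 508 CPM in the high inputs and from 2.57 to 524 CPM in the low inputs, and from 18.4 to 214 CPM and 1.07 to 100.2 CPM in the IP libraries. Neurod6 had a log2 fold change of 2.39 ± 1.14 in IP (SE, edgeR adjusted p = 0.992). Without the filter on low counts, Slc17a7 was called in both fractions and Neurod6 in input. Their part in the other IP differences was not tested.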
